A study of Mus musculus with 6 samples.

Results

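Blood and lymphatic vessels of inguinal white adipose tissue (IWAT) were followed through 10 endothelial genes. *Pecam1*, *Cdh5*, *Kdr*, *Flt1*, *Tie1*, *Tek*, *Vwf*, and *Emcn* are grouped here as blood endothelial genes, and *Prox1* and *Flt4* as lymphatic genes. The grouping is by name, and whether the first 8 were limited to blood vessels was not tested. The 10 genes were taken by symbol from a table of 55487 genes, with earlier results of these data known, and all were detected in every library. The table comes from bulk RNA-seq of IWAT of male C57BL/6J mice aged 4 weeks and kept on regular chow, with 1 library per mouse. The control group was 3 wild-type mice (*Ebf2*+/+). The other group was 3 heterozygous knock-in mice (labelled *Ebf2* p.E165X/+, here E165X/+), which carry a nonsense codon in 1 copy of *Ebf2* in every cell. The allele was made with CRISPR/Cas9 and bred to C57BL/6J, so any difference may arise in any cell type of the depot. *Ebf2* encodes a DNA-binding factor of adipocyte precursors. The question put to the data was whether expression of vessel genes differed between the genotypes in this growing depot.

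Vascular endothelial growth factor (VEGF) signals through receptor tyrosine kinases on endothelial cells. KDR (VEGFR2) carries the main growth signal in blood vessels, FLT1 (VEGFR1) binds VEGF-A tightly and acts largely as a decoy, and FLT4 (VEGFR3) receives VEGF-C and VEGF-D and is needed for lymphatic growth. Angiopoietins act through TEK (TIE2) and its partner TIE1 to steady vessels, and PROX1 is the transcription factor that sets and keeps lymphatic identity. White adipose tissue is densely supplied with capillaries, through which lipoprotein lipids reach the adipocytes.

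No endothelial gene was shown to differ between the genotypes in edgeR's quasi-likelihood test. Of the 8 blood endothelial genes, 7 had a lower and 1 a higher fitted level in E165X/+ mice, and both lymphatic genes had a higher one, with sizes from a log2 fold change of −0.27 for *Cdh5* to 0.29 for *Prox1*. None of the 10 passed the adjusted *P* threshold, and none reached an unadjusted *P* under 0.05. *Cdh5*, *Tie1*, and *Tek* were lower in all 3 E165X/+ mice than in all 3 wild-type mice, as were 6.78% of the 18905 genes with a count of 10 or more in each library. With counts scaled by total counts alone none of the 10 was, a scaling for which the share of all genes was not taken. A large part of the lower fitted values lay in the third E165X/+ library, which was also the lowest of the 6 for 7 of the 10 genes.

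The libraries held 106820505 to 135039488 counts, with no shown difference in depth by genotype (*P* = 0.9 in a two-sided exact permutation test, whose smallest possible *P* is 0.1 with 3 against 3). Levels are given as CPM, the counts of a gene per 1000000 counts of a library size that edgeR's TMM factor has corrected. The endothelial genes had between 958 counts (*Prox1*, wild-type replicate 1) and 42515 counts (*Pecam1*, E165X/+ replicate 2). *Ebf2* itself had 38.3, 41.3, and 37.2 CPM in wild-type and 22.8, 22.9, and 21.1 CPM in E165X/+ libraries, without overlap (log2 fold change −0.81, SE 0.076), with an adjusted *P* of 0.0596 in edgeR and 1.37e-13 in DESeq2. The labelled tissue was checked against 12 adipocyte genes, all of which were detected, with *Fabp4*, a fatty acid carrier of adipocytes, the most abundant of them.

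A pair of libraries stood apart from the rest in markers of other cell types. In E165X/+ replicate 3, the 8 skeletal muscle genes, led by *Myh4*, took 3.89% of all counts, against 0.167%, 0.695%, and 0.271% in wild-type replicates 1 to 3 and 0.316% and 0.0752% in E165X/+ replicates 1 and 2 (two-sided exact permutation test of the genotypes, *P* = 0.8). The 12 adipocyte genes took 1.19% of its counts, against 1.82% to 2.11% in the other 5 libraries. Fitted by genotype, 8 of 8 muscle genes had higher values (median log2 fold change 2.003), which turned to 8 of 8 lower (median −0.94) without that library, and 11 of 12 adipocyte genes had lower values (median −0.28), which became 9 of 12 (median −0.17). In wild-type replicate 1, the 7 B cell genes, led by *Ms4a1*, took 0.0389%, against 0.0628% and 0.0643% in the other wild-type libraries and 0.0694%, 0.0805%, and 0.0654% in the E165X/+ libraries (*P* = 0.1, the smallest that 3 against 3 allow in this exact permutation test). Genotype values below are therefore also given without these libraries where that matters. The part of muscle, adipocyte, and lymph node content in the vessel values was not tested.

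**Figure D1:**
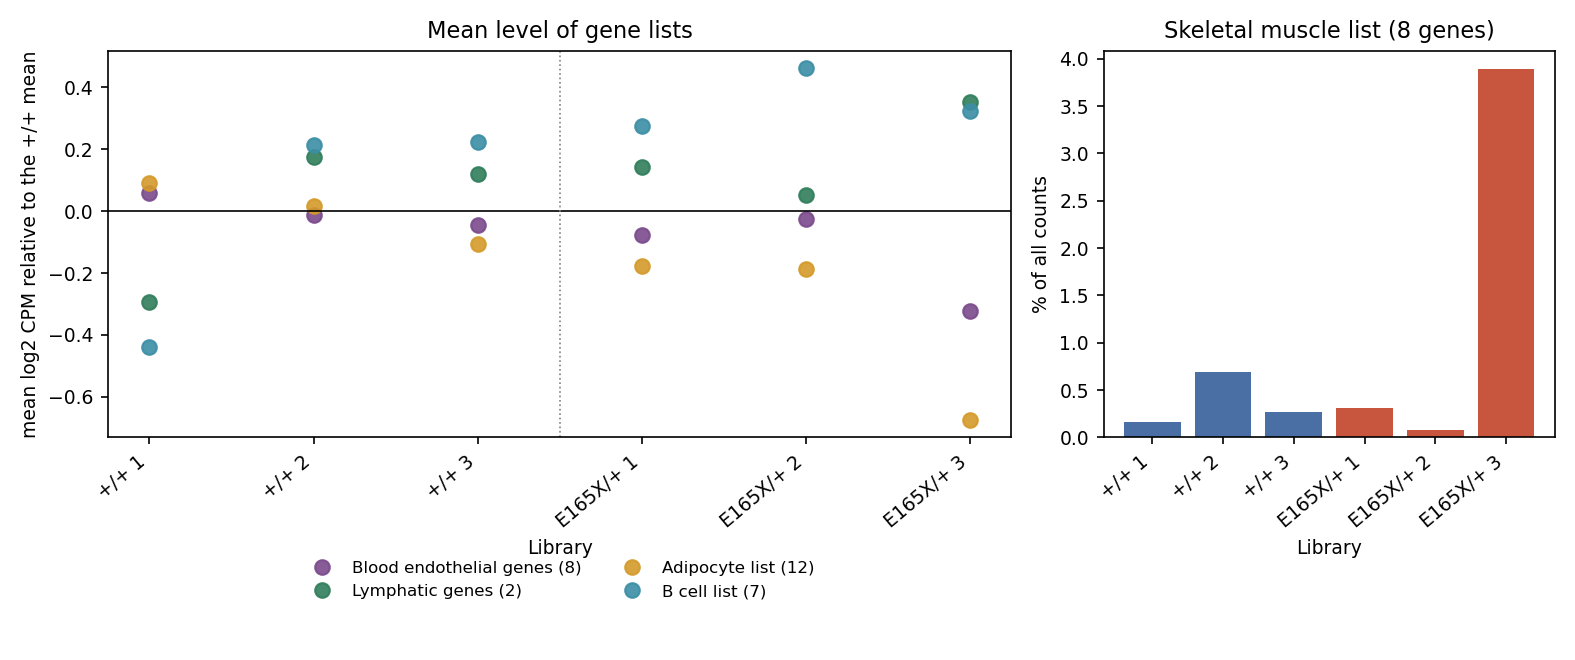
Left, mean log2 CPM of the 8 blood endothelial, 2 lymphatic, 12 adipocyte, and 7 B cell genes in each of the 6 libraries, relative to the mean of the 3 wild-type (+/+) libraries (0). Right, percent of all counts taken by the 8 skeletal muscle genes in each library. E165X/+ replicate 3 holds the lowest blood endothelial and adipocyte values and 3.89% muscle counts, and +/+ replicate 1 the lowest lymphatic and B cell values.

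EBF2 binds DNA, and the promoters of the endothelial genes were read for letters of the EBF palindrome. RefSeq promoters of GRCm38.p6, each 250 bases before to 50 bases after a transcription start, were found for 7 of the 10 genes (8 promoters, *Prox1* having 2), and those of *Pecam1*, *Cdh5*, and *Vwf* were not found. The palindrome CCCNNGGG, which reads the same on both strands, was present in 2 of the 8, those of *Flt1* and *Flt4*, and in 13.7% of all 32851 promoters. Both matches are the letters CCCCCGGG. The study's EBF motif is narrower and asks for A or T at 1 of the middle bases (CCCANGGG or CCCTNGGG, both strands), and it was present in 0 of the 8 promoters and in 10.2% of all. The core AGGAAG bound by ETS factors of endothelial cells, searched on both strands, was present in 3 of the 8, those of *Flt1*, *Tie1*, and *Emcn*, and in 35.4% of all. The promoters that hold the wider palindrome are shown. They lie at chr5:147725962-147726261 (*Flt1*, minus strand) and chr11:49609429-49609728 (*Flt4*, plus strand). They are written 5′ to 3′ on the strand of the gene, and capitals mark CCCNNGGG and AGGAAG.
Flt1: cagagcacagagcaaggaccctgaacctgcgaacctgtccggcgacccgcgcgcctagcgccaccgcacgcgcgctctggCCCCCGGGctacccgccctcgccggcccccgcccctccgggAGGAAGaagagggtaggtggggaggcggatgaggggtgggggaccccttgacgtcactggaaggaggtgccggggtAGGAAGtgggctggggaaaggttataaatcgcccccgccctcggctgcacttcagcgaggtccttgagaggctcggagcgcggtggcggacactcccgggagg
Flt4: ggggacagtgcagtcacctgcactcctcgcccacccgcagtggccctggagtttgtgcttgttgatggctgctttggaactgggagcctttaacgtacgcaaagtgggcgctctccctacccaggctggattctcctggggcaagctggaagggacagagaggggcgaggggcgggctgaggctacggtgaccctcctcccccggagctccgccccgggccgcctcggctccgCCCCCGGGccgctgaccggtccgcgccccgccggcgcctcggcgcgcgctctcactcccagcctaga
In *Flt1* the palindrome appears once and AGGAAG at 2 places, without overlap between them, and in *Flt4* the palindrome appears once. A match is a description of the letters, and binding at these sites was not measured in these libraries.

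*Cdh5* (ENSMUSG00000031871, chr8:104101625-104144511, plus strand, GRCm38) encodes VE-cadherin, the adhesion protein of endothelial junctions. It had 346.0, 329.4, and 304.9 CPM in wild-type and 298.8, 298.1, and 218.6 CPM in E165X/+ libraries. Every E165X/+ library lay below every wild-type library, and E165X/+ replicate 3 lay far below the other 5. The means were 327 ± 20.7 and 272 ± 46.1 CPM (SD, n = 3 mice each), a fold of 0.832 (95% interval 0.662 to 1.04) and a log2 fold change of −0.27 (SE 0.14), with an unadjusted *P* of 0.0988 and an adjusted *P* of 0.783 from edgeR. Without E165X/+ replicate 3 the log2 fold change was −0.13. *Pecam1* (ENSMUSG00000020717, chr11:106654217-106750628, minus strand), which encodes the junctional adhesion molecule CD31, did not follow the same order. It had 320.0, 348.2, and 314.7 CPM in wild-type and 315.6, 340.4, and 277.9 CPM in E165X/+ libraries. The groups overlapped, and only E165X/+ replicate 3 lay below all of the others. Its log2 fold change was −0.074 (SE 0.11, 95% interval −0.33 to 0.18, adjusted *P* = 0.866 from edgeR), and 0.0015 without that library.

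Among the VEGF receptors, *Kdr* (ENSMUSG00000062960, chr5:75932827-75978458, minus strand) had 257.4, 244.1, and 218.7 CPM in wild-type and 225.5, 214.0, and 160.3 CPM in E165X/+ libraries. The groups overlapped, since E165X/+ replicate 1 lay above wild-type replicate 3. Its means of 240.0 ± 19.7 and 199.9 ± 34.8 CPM (SD, n = 3) corresponded to a log2 fold change of −0.26 (SE 0.14, 95% interval −0.60 to 0.070, adjusted *P* = 0.783 from edgeR), or −0.13 without E165X/+ replicate 3. *Flt1* (ENSMUSG00000029648, chr5:147561604-147726011, minus strand), the decoy receptor, had 96.7, 98.6, and 98.4 CPM in wild-type and 95.9, 104.3, and 83.8 CPM in E165X/+ libraries. The wild-type libraries were nearly equal, and the E165X/+ libraries lay on both sides of them. The log2 fold change of *Flt1* was −0.049 (SE 0.092, adjusted *P* = 0.905 from edgeR). Its sign turned to 0.032 without E165X/+ replicate 3 and to 0.0087 with counts scaled by total counts alone.

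The angiopoietin receptors gave small values of the same sign. *Tie1* (ENSMUSG00000033191, chr4:118471191-118490061, minus strand) had 123.7, 114.4, and 118.7 CPM in wild-type and 108.4, 112.4, and 87.6 CPM in E165X/+ libraries, and *Tek* (ENSMUSG00000006386, chr4:94739289-94874976, plus strand) had 89.1, 79.8, and 88.9 CPM against 79.6, 78.4, and 76.8 CPM. For both genes all E165X/+ libraries lay below all wild-type libraries, for *Tek* by a narrow margin. *Tie1* had a log2 fold change of −0.21 (SE 0.11) and *Tek* one of −0.13 (SE 0.073), and the adjusted *P* was 0.783 for each. E165X/+ libraries varied little for *Tek* (coefficient of variation 1.78%, against 6.21% in wild type), whereas for *Tie1* they varied by 12.9%, against 3.90%. Without E165X/+ replicate 3 the log2 fold changes were −0.11 for *Tie1* and −0.12 for *Tek*.

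*Vwf* (ENSMUSG00000001930, chr6:125546774-125686679, plus strand), which encodes the clotting protein von Willebrand factor stored in endothelial cells and platelets, was the blood endothelial gene with a higher fitted level in E165X/+ mice. It had 85.0, 79.5, and 79.6 CPM in wild-type and 87.9, 96.4, and 82.6 CPM in E165X/+ libraries. The groups overlapped only because E165X/+ replicate 3 lay below wild-type replicate 1. The log2 fold change was 0.13 (SE 0.081, 95% interval −0.061 to 0.32, adjusted *P* = 0.783 from edgeR) and 0.18 without that E165X/+ library, but 0.066 without E165X/+ replicate 2. *Emcn* (ENSMUSG00000054690, chr3:137341067-137432185, plus strand), which encodes the mucin endomucin of capillary and venous endothelium, had 34.9, 30.2, and 29.3 CPM in wild-type and 27.4, 29.3, and 24.2 CPM in E165X/+ libraries. Wild-type replicate 3 and E165X/+ replicate 2 were nearly equal, so that the groups met at that level. The log2 fold change of *Emcn* was −0.22 (SE 0.10, 95% interval −0.46 to 0.018) with the smallest unadjusted *P* of the 10 genes, 0.0651, and an adjusted *P* of 0.783 from edgeR. The log2 fold change was −0.15 without E165X/+ replicate 3 and −0.081 without both that library and wild-type replicate 1.

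The lymphatic genes were fitted higher in E165X/+ mice, with wide overlap. *Prox1* (ENSMUSG00000010175, chr1:190118035-190170714, minus strand) had 7.97, 13.0, and 12.2 CPM in wild-type and 14.3, 10.7, and 15.6 CPM in E165X/+ libraries. Wild-type replicate 1 was the lowest library and E165X/+ replicate 3 the highest, and E165X/+ replicate 2 lay below 2 of the wild-type libraries. The log2 fold change was 0.29 (SE 0.22, 95% interval −0.21 to 0.79, adjusted *P* = 0.783 from edgeR), the widest interval of the 10 genes. *Flt4* (ENSMUSG00000020357, chr11:49609263-49652739, plus strand), the VEGF-C receptor, had 17.9, 21.0, and 20.8 CPM in wild-type and 18.3, 21.7, and 22.5 CPM in E165X/+ libraries. Its libraries were spread alike in both genotypes, and the log2 fold change was 0.064 (SE 0.11, 95% interval −0.20 to 0.32, adjusted *P* = 0.896 from edgeR). Without E165X/+ replicate 3, the highest library for both genes, the log2 fold changes were 0.18 for *Prox1* and 0.0041 for *Flt4*. Wild-type replicate 1 was the lowest of the 6 libraries for both. Without it the log2 fold changes were 0.086 for *Prox1* and −0.022 for *Flt4*, and without both it and E165X/+ replicate 3 they were −0.024 and −0.079.

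**Figure D2:**
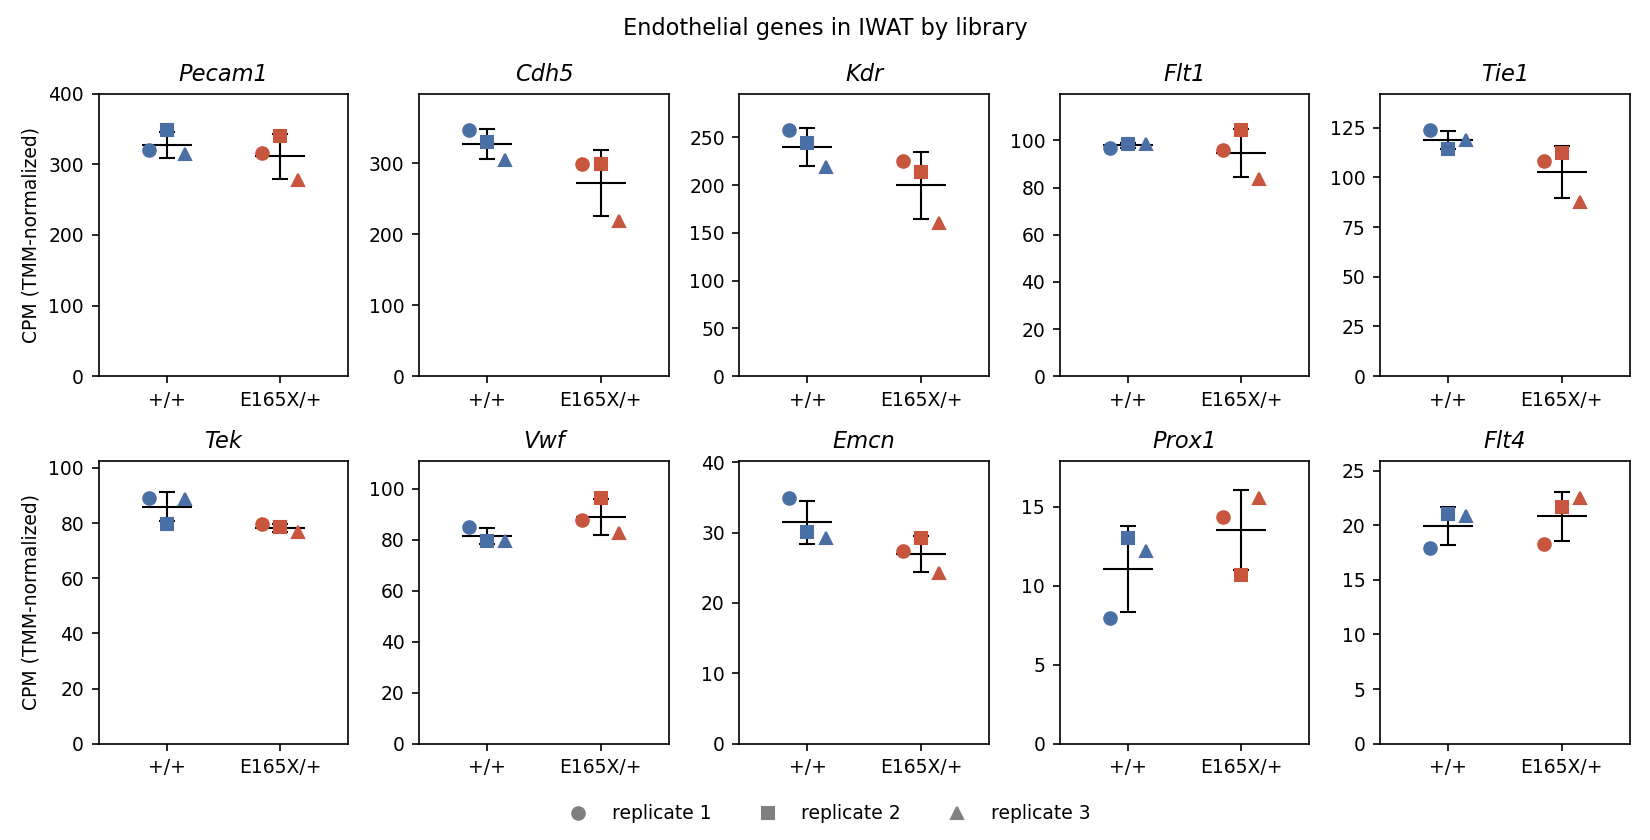
TMM-normalized CPM (linear axis from 0) of the 10 endothelial genes in IWAT of +/+ (blue) and E165X/+ (red) mice. Symbols are single libraries by replicate number, and bars are the mean ± SD of 3 mice. *Cdh5*, *Tie1*, and *Tek* show no overlap between the genotypes, and the triangle of E165X/+ replicate 3 is the lowest point for 7 genes.

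Across the whole table, 3 of 32664 genes (0.00918%) passed an adjusted *P* under 0.05 with a fold above 1.5 in edgeR, and none of the 10 endothelial genes did. DESeq2 called 97 of 17934 genes (0.541%) by the same thresholds and again none of the 10. At an unadjusted *P* under 0.05, edgeR had 4.77% of all genes tested (3.09% lower and 1.68% higher in E165X/+ mice) and DESeq2 4.87%, and both had 0 of the 10 endothelial genes. The 7 of 10 genes with a log2 fold change below 0 compare with 47.9% of all genes tested and 43.9% of those with a count of 10 or more in each library. The 3 of 10 without overlap and lower in E165X/+ mice compare with 6.78% of those 18905 genes, and 0 of 10 were higher without overlap, against 6.66%. With counts scaled by total counts alone, no endothelial gene was without overlap, and with DESeq2's size factors *Emcn* joined the 3. The share of all genes without overlap was not taken under these scalings, so neither count can be set against it. Without E165X/+ replicate 3, *Cdh5*, *Tie1*, and *Tek* were lower and *Vwf* higher without overlap, against 12.8% and 14% of the 18905 genes. The same 4 genes were without overlap when wild-type replicate 1 was left out (9.49% lower and 11.4% higher among the 18905 genes) and when both libraries were (17.5% and 21.5%). Only *Vwf* was new there, since *Cdh5*, *Tie1*, and *Tek*, already without overlap over all 6 libraries, stay so at the same CPM when any library is dropped. The median log2 fold change was −0.10 over the 10 genes, −0.17 over the 8 blood endothelial genes, and 0.18 over both lymphatic genes, beside 0.014 over all genes tested. Without E165X/+ replicate 3, the 10 genes divided into 5 lower and 5 higher with a median of −0.053, and the median of the 8 blood endothelial genes was −0.11. Without both that library and wild-type replicate 1, the blood endothelial median was −0.084 with 6 of 8 lower, and *Cdh5* was at −0.10 and *Kdr* at −0.086. In that setting 8 of the 10 genes were lower. There, *Vwf* had a log2 fold change of 0.20, higher in E165X/+ mice. It was the 1 of the 8 blood endothelial genes with an unadjusted *P* under 0.05 in edgeR, beside 1599 of 31496 genes tested. Without wild-type replicate 1 alone, 8 of the 10 were lower and 0 had such a *P*. With counts scaled by total counts alone the median of the 10 was −0.049. The lymphatic median was 0.032 without wild-type replicate 1 and 0.090 without E165X/+ replicate 3. In bulk tissue, fewer endothelial cells and less RNA per endothelial cell cannot be told apart. The 95% intervals reached beyond a 1.5-fold difference for *Cdh5*, *Kdr*, and *Prox1* and stayed within it for the others, so that smaller differences of either sign were not resolved with 3 mice per genotype.

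**Figure D3:**
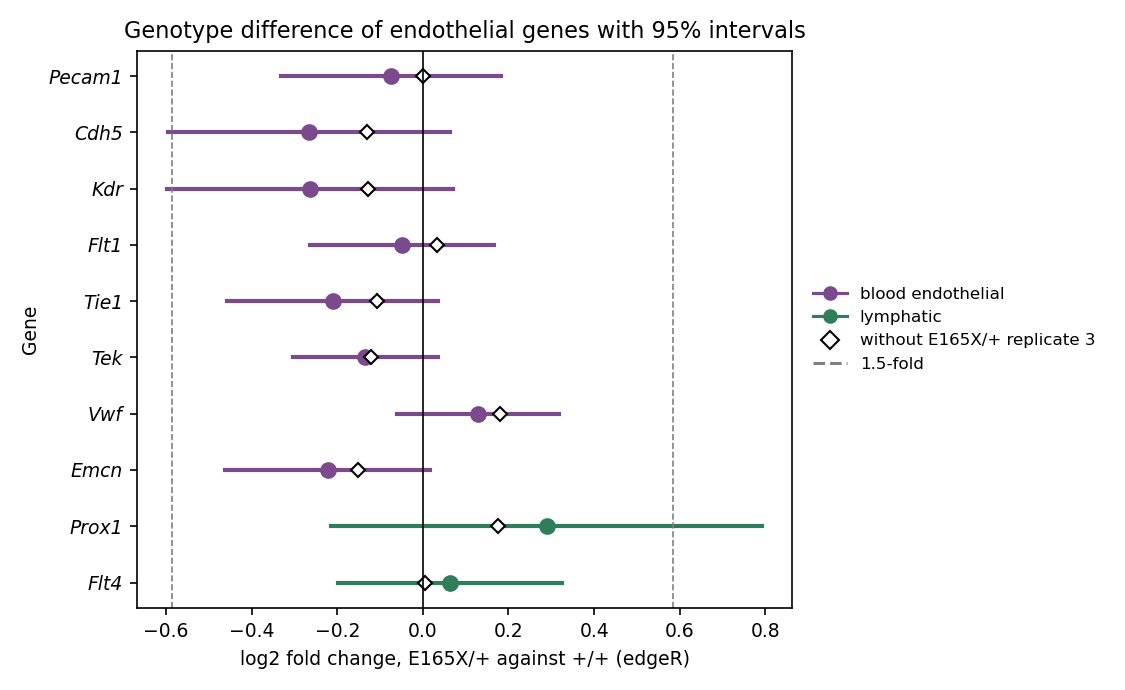
Log2 fold change of E165X/+ against +/+ from edgeR for the 10 endothelial genes (circles) with 95% intervals (lines), the same without E165X/+ replicate 3 (open diamonds), and 1.5-fold limits (dashed). Every interval includes 0, and the diamonds lie nearer to 0 than the circles for every gene but *Vwf*, whose diamond lies farther out at 0.18.

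Per kilobase of exon, the wild-type level was highest for *Cdh5* (77.8 ± 4.92 CPM per kb, SD, n = 3) and then fell through *Pecam1* (52.6 ± 2.89), *Kdr* (26.6 ± 2.18), *Tie1* (24.2 ± 0.945), *Tek* (18.2 ± 1.13), *Flt1* (7.25 ± 0.0752), *Emcn* (5.82 ± 0.563), *Vwf* (5.07 ± 0.198), and *Flt4* (2.42 ± 0.211) to *Prox1* (1.32 ± 0.323). Both lymphatic genes stood at the end of this order in each genotype. *Kdr* lay above *Tie1* in 5 of 6 libraries, and their wild-type levels overlapped. *Emcn* lay above *Vwf* in all 3 wild-type libraries and below it in all 3 E165X/+ libraries, where *Vwf* had 5.54 ± 0.435 and *Emcn* 4.98 ± 0.473 CPM per kb, and the order of the other genes was the same in both genotypes. The genotype difference of this ratio was not tested. Exon lengths are those of GENCODE M21. The study's methods name a 3′ mRNA library while the labels give a kit from a different maker, and in a 3′ library counts do not grow with length, in which case the unscaled CPM order applies. In wild-type mice it ran from *Pecam1* and *Cdh5*, whose means were nearly equal, through *Kdr*, *Tie1*, *Flt1*, *Tek*, *Vwf*, *Emcn*, and *Flt4* to *Prox1*, and in E165X/+ mice *Vwf* (88.9 CPM) stood above *Tek* (78.3 CPM).

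The blood endothelial genes moved together mostly through E165X/+ replicate 3. Relative to the wild-type mean of each gene, that library lay at a log2 difference of −0.58 for *Cdh5*, −0.58 for *Kdr*, −0.44 for *Tie1*, −0.37 for *Emcn*, −0.24 for *Pecam1*, and −0.22 for *Flt1*, but at −0.16 for *Tek* and 0.021 for *Vwf*. Its *Prox1* level lay 0.52 above the wild-type mean. Counts were also taken relative to *Cdh5* within each library, which removes any scaling of the whole library. The *Kdr* to *Cdh5* ratio was 0.734 ± 0.0147 in wild-type and 0.735 ± 0.0186 in E165X/+ libraries (SD, n = 3), nearly constant even in E165X/+ replicate 3 (0.733). The *Vwf* to *Cdh5* ratio was 0.246, 0.241, and 0.261 in wild-type and 0.294, 0.323, and 0.378 in E165X/+ libraries and did not overlap. It was the only 1 of the 9 genes set against *Cdh5* without overlap, while 31.4% of all genes with 10 or more counts in each library were higher relative to *Cdh5* without overlap and 0.709% were lower. The genes most like the mean log2 CPM of the 10 endothelial genes over the 6 libraries, out of 14855 genes with a mean of at least 1 CPM, were *Echdc2* (Pearson *r* = 0.997), *Zfp326* (*r* = 0.996), *Baiap2* (*r* = 0.995), *Ptprg* (*r* = 0.995), and *Trarg1* (*r* = 0.993). All 5 had their lowest level in E165X/+ replicate 3, and the 6 points share that library.

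Among the ligands, VEGF-A and VEGF-B transcripts had lower values in E165X/+ mice, without passing the adjusted threshold. *Vegfa*, the main angiogenic ligand of KDR and FLT1, had 189, 203, and 223 CPM in wild-type and 185, 172, and 171 CPM in E165X/+ libraries (log2 fold change −0.22, SE 0.093, unadjusted *P* = 0.0448). *Vegfb*, a ligand of FLT1, had 47.8, 50.7, and 42.6 CPM against 37.4, 37.8, and 40.5 CPM (log2 fold change −0.29, SE 0.083, unadjusted *P* = 0.00976). Neither gene overlapped between the genotypes (2 of 5 ligands, against 6.78% of the 18905 genes), and both had an adjusted *P* of 0.783 from edgeR. The unadjusted *P* of *Vegfa* was 0.0850 without E165X/+ replicate 3, 0.190 with total counts alone, 0.0167 without wild-type replicate 1, and 0.0218 without both libraries, while that of *Vegfb* ran from 0.00666 to 0.0255 over these settings and the one without wild-type replicate 1. These 2 of the 5 VEGF family ligands compare with 3.09% of all genes that were lower at an unadjusted *P* under 0.05. *Vegfc*, the lymphatic ligand of FLT4, overlapped between the genotypes with 4.23 ± 0.426 and 5.17 ± 0.771 CPM (SD, n = 3; log2 fold change 0.29, SE 0.17), and *Vegfd* and *Pgf* had log2 fold changes of −0.023 and 0.022. The angiopoietins *Angpt1* and *Angpt2*, ligands of TEK, had log2 fold changes of −0.034 and 0.038, and *Angpt4*, below 1.2 CPM in every library, one of 0.23.

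Of 13 co-receptors and modulators of these pathways, 9 had lower and 4 higher fitted values, with a median log2 fold change of −0.11. The median was −0.017 without E165X/+ replicate 3 and −0.047 with counts scaled by total counts alone. *Nrp2*, a co-receptor for VEGF-C and semaphorins, had 102, 87.0, and 98.9 CPM in wild-type and 86.3, 83.3, and 80.1 CPM in E165X/+ libraries. It was the gene of this list without overlap and with an unadjusted *P* under 0.05 (log2 fold change −0.21, SE 0.083, unadjusted *P* = 0.0406, adjusted *P* = 0.783 from edgeR). This was 1 of 13, beside 6.78% of the 18905 genes with 10 or more counts in each library that were lower without overlap. At an unadjusted *P* under 0.05, 3.09% of all genes tested were lower. The unadjusted *P* of *Nrp2* was 0.0846 without E165X/+ replicate 3, 0.0779 without wild-type replicate 1, and 0.184 with total counts alone. *Aplnr*, the apelin receptor of growing vessels, and its ligand gene *Apln* had log2 fold changes of −0.42 (SE 0.23) and −0.38 (SE 0.26), with overlap. The Notch ligand gene *Dll4* had −0.24 (SE 0.15), the hypoxia factor gene *Epas1* −0.16 (SE 0.11), *Nrp1* −0.11 (SE 0.13), and the TIE2 phosphatase gene *Ptprb* −0.094 (SE 0.11). *Notch4* had −0.14 (SE 0.099), *Notch1* 0.034 (SE 0.10), *Hif1a* −0.012 (SE 0.070), and the sphingosine receptor gene *S1pr1* 0.11 (SE 0.094). *Ccbe1* and *Adamts3*, which help to activate VEGF-C, had 0.50 (SE 0.36) and 0.29 (SE 0.24), with *Ccbe1* highest in E165X/+ replicate 3 (3.97 CPM, against 1.48 to 2.09 CPM in the other libraries).

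Further vascular genes were listed by vessel type. None of the 191 genes in the lists beside the 10 endothelial genes passed the adjusted threshold in edgeR or DESeq2, while in edgeR 7 were lower and 1 was higher at an unadjusted *P* under 0.05, against 3.09% and 1.68% of all genes. With counts scaled by total counts alone, the number under that *P* changed by list. It went from 0 to 4 of the 13 other lymphatic genes and from 2 to 1 of the 5 VEGF family ligands, beside 1425 of 32664 genes tested. Of 22 other pan-endothelial genes, led by *Cd34*, 17 had lower and 5 higher fitted values (median log2 fold change −0.087). Without E165X/+ replicate 3 this became 10 lower and 12 higher (median 0.020), and with counts scaled by total counts alone 14 lower and 8 higher. The largest value among them was that of *Cldn5*, a tight-junction gene (−0.29, SE 0.13, adjusted *P* = 0.783). Of 11 capillary genes, led by *Cav1*, 8 were lower (median −0.17), and without E165X/+ replicate 3 the median was 0.0063. *Gpihbp1*, which holds lipoprotein lipase on capillaries, had 65.7 ± 3.15 and 57.7 ± 8.46 CPM (SD, n = 3), and *Sgk1*, a stress-regulated kinase gene, had the largest value of the list (log2 fold change 0.37, SE 0.24). Of 10 arterial genes, led by *Ltbp4*, 6 were higher (median 0.070, or 0.0019 without E165X/+ replicate 1), with *Bmx* at 0.32 (SE 0.16). Without E165X/+ replicate 3, 8 of 10 were higher (median 0.11). Without both that library and wild-type replicate 1, 9 of 10 were higher (median 0.14). Of 6 venous genes, 5 were higher (median 0.038, or 0.0015 without E165X/+ replicate 2). *Lrg1* was both the most abundant of them and the one with the largest value (0.22, SE 0.18). The venous median was 0.042 without E165X/+ replicate 3 and 0.064 without both that library and wild-type replicate 1.

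Lymphatic genes beyond *Prox1* and *Flt4* had fitted values of the same sign as that pair. Of 13 such genes, led by *Stab1*, a scavenger receptor gene that macrophages also express, 12 had higher and 1 a lower fitted level in E165X/+ mice (median log2 fold change 0.20), beside a median of 0.014 for all genes tested. *Reln*, which encodes the secreted glycoprotein reelin, had the largest value (0.42, SE 0.21, unadjusted *P* = 0.0772, adjusted *P* = 0.783 from edgeR), with 10.4, 12.3, and 12.4 CPM in wild-type and 13.9, 12.1, and 21.0 CPM in E165X/+ libraries. The groups overlapped, and E165X/+ replicate 3 was far above the rest. *Lyve1*, the hyaluronan receptor gene of lymphatic vessels and some macrophages, had 79.9 ± 21.6 and 92.1 ± 16.4 CPM (SD, n = 3). The median was 0.14 without E165X/+ replicate 3, with 11 of 13 higher, and 0.17 without wild-type replicate 1. Without both it was 0.081, with 10 of 13 higher. *Ccl21a*, counted among the higher genes, has near-identical copies, and a further *Ccl21a* entry had 0 counts in all libraries. Whether reads were shared between copies was not tested, so its value is uncertain. Genes of high endothelial venules, the vessels by which lymphocytes enter lymph nodes, were present in every library, with 5 of 5 fitted higher (median 0.19). Without E165X/+ replicate 2 their median was 0.097, and without wild-type replicate 1 there were 4 of 5 higher. Their median was 0.27 without E165X/+ replicate 3 and 0.25 without both that library and wild-type replicate 1, each with 5 of 5 higher. *Glycam1*, the most abundant of them, had 308, 251, and 253 CPM in wild-type and 333, 319, and 224 CPM in E165X/+ libraries, and *Madcam1* had a log2 fold change of 0.28 (SE 0.16). Along with them, 7 of 7 B cell genes (median 0.33, or 0.11 without wild-type replicate 1) and 7 of 7 T cell genes (median 0.21, or 0.067 without wild-type replicate 1, most abundant *Lck*) had higher fitted levels, and their part in the lymphatic values was not tested. Of 10 macrophage genes, led by *Lyz2*, 9 had higher fitted levels (median 0.11, or −0.026 without wild-type replicate 2).

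**Figure D4:**
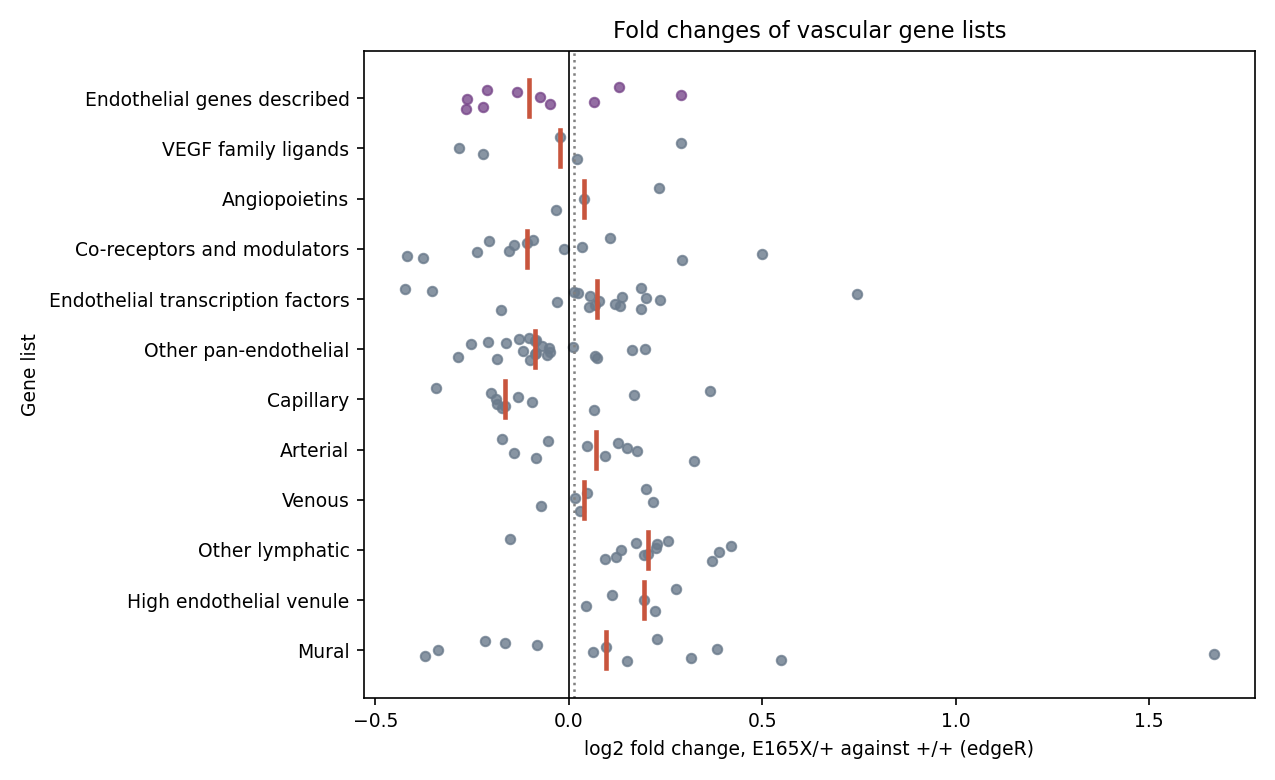
Log2 fold change of E165X/+ against +/+ from edgeR for each gene (points) of the 10 endothelial genes (top row) and of 11 further lists of vascular genes, with the median of each list (red bars) and the median of all genes tested (dotted line, 0.014). The other lymphatic genes and the genes of high endothelial venules lie mostly above 0, the other pan-endothelial and capillary genes mostly below, and the mural gene beyond 1.5 is *Des*.

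Transcription factors of endothelial cells had 14 higher and 4 lower fitted values out of 18 (median log2 fold change 0.072, or 0.0080 with 11 higher and 7 lower without wild-type replicate 1), led by *Ets1* (299 ± 29.4 and 340.3 ± 20.7 CPM, SD, n = 3). The largest value was that of *Mef2c* (0.74, SE 0.39), a factor also of skeletal muscle, which had 330.1 CPM in E165X/+ replicate 3 and 99.6 to 120 CPM in the other libraries. *Sox7*, a factor of vessel formation named after its values were seen, was the gene of this list at an unadjusted *P* under 0.05, with 20.1, 20.4, and 15.8 CPM in wild-type and 15.3, 14.1, and 12.6 CPM in E165X/+ libraries (log2 fold change −0.42, SE 0.13, unadjusted *P* = 0.0126, adjusted *P* = 0.783 from edgeR). This was 1 of 18 genes, against 3.09% of all genes tested. The unadjusted *P* of *Sox7* from edgeR was 0.0637 without both wild-type replicate 1 and E165X/+ replicate 3. It was 0.0402 without the former alone, 0.0299 without the latter alone, and 0.0376 with total counts alone. Of 13 mural genes, those of pericytes and smooth muscle around vessels, 8 were fitted higher and 5 lower (median 0.095), and without E165X/+ replicate 3 this turned to 4 higher and 9 lower (median −0.053). *Rgs5*, the pericyte gene with the highest level in the list, had 428, 439, and 439 CPM in wild-type and 352, 378, and 393 CPM in E165X/+ libraries without overlap. Its log2 fold change was −0.22 (SE 0.097, unadjusted *P* = 0.0575, adjusted *P* = 0.783 from edgeR). The unadjusted *P* was 0.191 with total counts alone, 0.0452 without E165X/+ replicate 3, 0.0544 without wild-type replicate 1, and 0.0326 without both libraries. *Kcnj8*, a potassium channel gene of pericytes also named after its values were seen, did not overlap either (32.8 ± 2.08 and 26.0 ± 1.89 CPM, SD, n = 3; log2 fold change −0.34, SE 0.085, unadjusted *P* = 0.00462, adjusted *P* = 0.783 from edgeR). In all, 3 of the 13 mural genes were lower and 0 higher without overlap, against 6.78% and 6.66% of the 18905 genes. *Des*, an intermediate filament gene of muscle, had the largest value (1.67, SE 0.94), with 969 CPM in E165X/+ replicate 3 and 58.8 to 174 CPM elsewhere.

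Because platelets and their precursors also hold *Vwf*, 8 of their genes were examined beside it. Summed over the 8, of which *Pf4* was the most abundant, the level was 48.6, 40.5, and 45.5 CPM in wild-type and 54.1, 48.4, and 48.7 CPM in E165X/+ libraries, and 5 of the 8 were fitted higher. *Gp9*, *Gp5*, *Gp6*, and *Gp1bb*, which encode parts of the platelet surface receptors, were at or below 0.311 CPM in every library. *Pf4* had a log2 fold change of −0.018, *Gp1ba* −0.16, and *Gp1bb* −0.53, and the chemokine gene *Ppbp* had the largest value among genes with 10 or more counts in each library (0.67, with overlap). *Itga2b*, the platelet integrin gene, was higher without overlap (18.9 ± 1.46 and 24.1 ± 3.38 CPM, SD, n = 3; log2 fold change 0.35, SE 0.12, unadjusted *P* = 0.0221, adjusted *P* = 0.783 from edgeR) and was named after its values were seen. This was 1 of 8 genes, against 6.66% of the 18905 genes that were higher without overlap and 1.68% of all genes that were higher at an unadjusted *P* under 0.05. Its unadjusted *P* from edgeR was 0.0831 without wild-type replicate 1, 0.00132 without E165X/+ replicate 3, and 0.00203 without both. Annotated genes overlap *Cdh5* and *Prox1* on the opposite strand, but none of these antisense genes had more than 2 counts in any library.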

How the data were processed

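Gene-level expected counts, made by the authors with 1 column per library and not scaled for library size, were used as deposited. The submitters' processing notes list cutadapt 4.8, FastQC 0.11.8, STAR 2.7.8a, RSEM 1.3.3, MultiQC 1.20, and GRCm38. All 332946 values were whole, so rounding changed none. The 4 reporter rows that name no mouse gene held 0 counts and were left out. The 32664 genes with 1 or more counts in some library were tested with edgeR 4.0.16 in R 4.3.3 (TMM factors, glmQLFit and glmQLFTest, genotype as the only term, Benjamini-Hochberg adjustment over all genes tested), and called at an adjusted *P* under 0.05 and a fold above 1.5. Intervals are 95% intervals from the fitted standard errors. Log2 CPM used a prior count of 2. DESeq2 1.42.0, the study's own tool, was an alternative, beside limma-voom, other filters and scalings, a replicate block, and each library left out. Leaving out wild-type replicate 1 together with E165X/+ replicate 3 was added after seeing the data. The procedures were tested on simulated data.

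The endothelial genes and all lists were chosen with earlier results of these data known, so their counts are descriptions. Named genes are the 10 endothelial genes, all ligands and co-receptors, the most abundant gene and the gene with the largest change of other lists, the 5 genes most like the endothelial mean, and *Ebf2*. *Gpihbp1*, *Lyve1*, *Sox7*, *Kcnj8*, *Itga2b*, *Ccl21a*, the platelet receptor genes, *Ebf1*, and *Ebf3* fall outside this rule and were named after their values were seen. Of the deposited identifiers, 55227 of 55487 were found in GENCODE M21, the source of coordinates. Strand use in counting is not given in the sources used here.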

Additional observations from a re-analysis of the deposited data

How the results depend on the processing

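Over 16 settings, 153 of 160 fold changes of the 10 endothelial genes kept their sign, 7 reversed, and none passed the adjusted threshold. The log2 fold change of *Pecam1* was 0.0015 without E165X/+ replicate 3. That of *Flt1* was 0.0087 with total counts only, 0.032 without E165X/+ replicate 3, and 0.012 without both that library and wild-type replicate 1. Without both libraries *Prox1* was −0.024 and *Flt4* −0.079, and *Flt4* was −0.022 without wild-type replicate 1. With each library left out in turn, values ran from −0.14 to 0.0015 for *Pecam1*, from −0.12 to 0.032 for *Flt1*, and from −0.022 to 0.15 for *Flt4*. The median of the lymphatic pair was −0.051 without both libraries. Of all genes, 97 were called by DESeq2, 6 with total counts only, 16 without both libraries, and 1 to 11 with each library left out, against 3. The number of endothelial genes without overlap was 4 with DESeq2's size factors and fell from 3 to 0 with total counts only, which moved the median log2 fold change of all genes from 0.014 to 0.066. The share of all genes without overlap was not taken under either scaling. With the replicate number as a block, 2 genes were called and none of the 10. The labels do not say whether the numbers pair the mice. Deviations from the group means of same-numbered libraries correlated at 0.15, −0.28, and −0.16, and those of differently numbered libraries from −0.32 to 0.39. With 3 libraries per genotype these values cannot decide whether mice were paired. The causes of the shifts between settings were not tested. The precision set by counting depth was not compared with the spread between mice.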

Other observations

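Of 6 epithelial genes, summed levels were 76.9, 4.37, and 40.9 CPM in wild-type and 33.0, 3.93, and 8.44 CPM in E165X/+ libraries, so that libraries of the same genotype differed more than the genotypes. The most abundant of them was *Krt5*, a keratin of basal epithelial cells. Of 5 erythroid genes, led by *Hbb-bs*, summed shares were 0.296%, 0.211%, and 0.332% of counts in wild-type and 0.475%, 0.272%, and 0.190% in E165X/+ libraries (two-sided exact permutation test, *P* = 0.9). Of 9 adipocyte progenitor genes, led by *Dcn*, 6 were fitted higher and 3 lower in E165X/+ mice (median log2 fold change 0.11, or −0.020 without wild-type replicate 2), and *F3*, the tissue factor gene, had the largest value (−0.28). *Ebf1* and *Ebf3*, the other Ebf genes examined, had log2 fold changes of −0.025 (SE 0.11) and −0.21 (SE 0.094) and did not pass the threshold. *Ebf3* had 46.9, 40.1, and 38.9 CPM in wild-type and 36.3, 38.8, and 34.0 CPM in E165X/+ libraries. Its groups did not overlap, by a narrow margin (unadjusted *P* = 0.0614 from edgeR), as for 6.78% of the 18905 genes that were lower without overlap.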
